A study of Homo sapiens with 6 samples.

Results

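Tight junctions are belts of protein contact that seal neighbouring epithelial cells together near their apical side and set how ions, water and small solutes pass between cells. The tight junction genes described here were 9 genes of this machinery, namely the claudins CLDN1, CLDN2, CLDN3, CLDN4, CLDN7, CLDN12 and CLDN15, occludin (OCLN) and TJP1, which encodes the scaffold protein ZO-1. They were taken by gene symbol from the 27942 genes of the count table, and the list was chosen with earlier results of these data known. Of the 9, 8 had enough reads to be tested among the 13727 genes that passed the filter on low counts. CLDN1 did not pass, and its counts are given without a call.

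The cells were HCT116, a human colorectal carcinoma line that carries wild-type p53. The NT group was 3 libraries of cells that received no drug, and the OXA group was 3 libraries of cells given 0.5 µM oxaliplatin, a platinum drug that forms DNA adducts, with both groups kept in culture for 24 h. Polyadenylated RNA was read with a strand-specific kit in paired reads. A single established line in culture has no stroma, lumen or normal mucosa beside it, and transcripts were measured, not junction proteins or permeability. Nothing in the labels says that libraries of a group came from separate cultures, so the p-values measure the spread between these libraries only, which may be technical. Fewer cells expressing a gene and less of its RNA per cell cannot be told apart in such bulk RNA.

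Claudins span the membrane 4 times and polymerize into the strands of the junction. Some of them, CLDN2 and CLDN15 among them, form pores between cells that let small cations and water through. Others, such as CLDN1, CLDN3, CLDN4 and CLDN7, are mostly counted as sealing or barrier claudins, although their effect varies with the cell type. CLDN12 is an atypical claudin that lacks the usual tail motif for binding PDZ domains. Occludin is a further membrane protein of the strands that tunes their stability, and ZO-1 ties claudins and occludin to the actin cytoskeleton. In the gut, CLDN2 is known as the leaky claudin of crypt cells and of inflamed mucosa, and CLDN3, CLDN4 and CLDN7 are abundant in colonic epithelium.

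Library totals were 32979521 to 40967880 counts. A list of 10 known p53 target genes was used as a check that the OXA label matches the cells, and 9 of the 10 rose (edgeR adjusted p under 0.05), with BBC3 as the exception (adjusted p = 0.107). This list was chosen with earlier results of these data known, so the check is not an independent one. Of 8 colon epithelium markers, 7 exceeded 3 counts in every library and CDX1 was at 0, and their summed level was 1982 to 2668 CPM (counts scaled to a library total of 1e6) in NT and 2818 to 3161 in OXA. In edgeR without pairing, 0 of the 7 tested markers were called higher and 0 lower. Their median log2 fold change was -0.04 (range -0.48 to 0.47), so the sums do not show a shared rise. Fibroblast, leukocyte and endothelial lists summed to at most 8.55 CPM in any library. Of 6 fibroblast markers, 2 exceeded 3 counts in every library, and 2, DCN and LUM, were at 0. So did 1 of 5 leukocyte and 1 of 4 endothelial markers exceed 3 counts in every library. The labels give replicate numbers but name no pairing. NT and OXA libraries of the same number deviated from their group means together (r = 0.55, 0.54 and 0.31), while other pairings gave -0.47 to 0.09. These correlations come from the same counts that the paired fits use, so they do not show a paired design. NT library 1 stood apart from the other NT libraries. The deviation of each library from the mean of all 6 libraries was correlated with GC content over 13675 genes, which are not independent replicates. Spearman correlations were -0.72, 0.46 and 0.16 in NT libraries 1 to 3 and -0.20, 0.59 and 0.16 in OXA libraries 1 to 3. Such trends were thus not limited to NT library 1. The values for NT library 1, which had the strongest trend, are given for the members.

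The flanks of the start sites of 3 claudins are shown first. CLDN2 and CLDN4 are the members that passed an edgeR test with the libraries paired by number, and CLDN3, the neighbour of CLDN4 on chromosome 7, is the most GC-rich member. Each line gives the 250 bases before an annotated RefSeq start in GRCh38.p14, read 5′ to 3′ on the strand of the gene. The CLDN2 window is X:106899914-106900163 on the plus strand, the CLDN4 window is 7:73830746-73830995 on the plus strand, and the CLDN3 window is 7:73770271-73770520 on the minus strand. Capitals mark the letters of the AP-1 motif (TGANTCA) and of the GC box (GGGCGG, written CCGCCC where it lies on the other strand).
CLDN2: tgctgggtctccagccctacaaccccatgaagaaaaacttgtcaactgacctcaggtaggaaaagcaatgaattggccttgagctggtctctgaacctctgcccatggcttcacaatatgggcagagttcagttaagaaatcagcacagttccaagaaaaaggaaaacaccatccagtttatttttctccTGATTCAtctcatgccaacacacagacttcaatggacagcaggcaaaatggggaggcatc
CLDN4: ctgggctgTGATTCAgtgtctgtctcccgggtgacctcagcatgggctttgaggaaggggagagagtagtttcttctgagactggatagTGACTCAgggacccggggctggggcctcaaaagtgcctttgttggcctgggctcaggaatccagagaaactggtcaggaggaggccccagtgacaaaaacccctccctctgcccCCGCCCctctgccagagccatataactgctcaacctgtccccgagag
CLDN3: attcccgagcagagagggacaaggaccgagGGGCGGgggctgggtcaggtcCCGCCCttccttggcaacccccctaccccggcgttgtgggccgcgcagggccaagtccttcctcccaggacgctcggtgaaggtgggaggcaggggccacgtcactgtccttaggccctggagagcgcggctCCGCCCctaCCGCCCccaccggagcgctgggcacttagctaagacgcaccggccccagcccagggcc

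The AP-1 letters occurred once in the printed CLDN2 window, were not found in the window of its other RefSeq start (X:106918110-106918359), and occurred at 2 places in the CLDN4 window, and the GC box occurred at 4 places in the CLDN3 window. The windows had a GC content of 46.0% for CLDN2, 58.8% for CLDN4 and 71.6% for CLDN3. Over all RefSeq start sites of the members, 15 windows were searched, both strands, for 5 motifs. AP-1 was found in 3 of the 15, belonging to CLDN2, CLDN4 and CLDN15, against 6.57% of the 35114 windows of all genes. GC boxes were found in 9 of the 15, from 7 of the 9 members, against 42.6% of all windows. The E-box bound by Snail and ZEB repressors (CAGGTG) was found in 4 of the 15, belonging to CLDN7, OCLN and TJP1, against 17.5% of all windows. TATAAA, present in 10.7% of all windows, and the grainyhead-like motif AACCGGTT, present in 0.117%, were in none of the 15. A match of letters does not show that a factor binds there, and these motifs do not overlap one another in the printed windows.

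Of the 9 genes, CLDN2 was lower and CLDN4 higher in OXA when the libraries were paired by number, the scarce CLDN1 had lower counts in OXA without a call, and occludin, ZO-1 and CLDN12 were within 6% of their NT level on average. With edgeR's quasi-likelihood test without pairing, 0 of the 8 tested members were called higher and 0 lower at an adjusted p under 0.05, against 2.78% of all tested genes called higher and 2.29% called lower. At an unadjusted p under 0.05 the counts were 0 higher and 1 lower, the 1 being CLDN2. DESeq2 called 0 higher and 1 lower, again CLDN2, against 4.92% of genes higher and 4.91% lower. When the edgeR fit held the replicate block, a term for the shared library number, 1 member was called higher, CLDN4, and 1 lower, CLDN2, against 12.1% of all tested genes called higher and 10.9% called lower. A count of 1 in 8 is close to that background in both directions, so the members as a list did not stand out. Their median log2 fold change without the block was -0.0039, beside 0.02 for all tested genes.

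**Figure D1:**
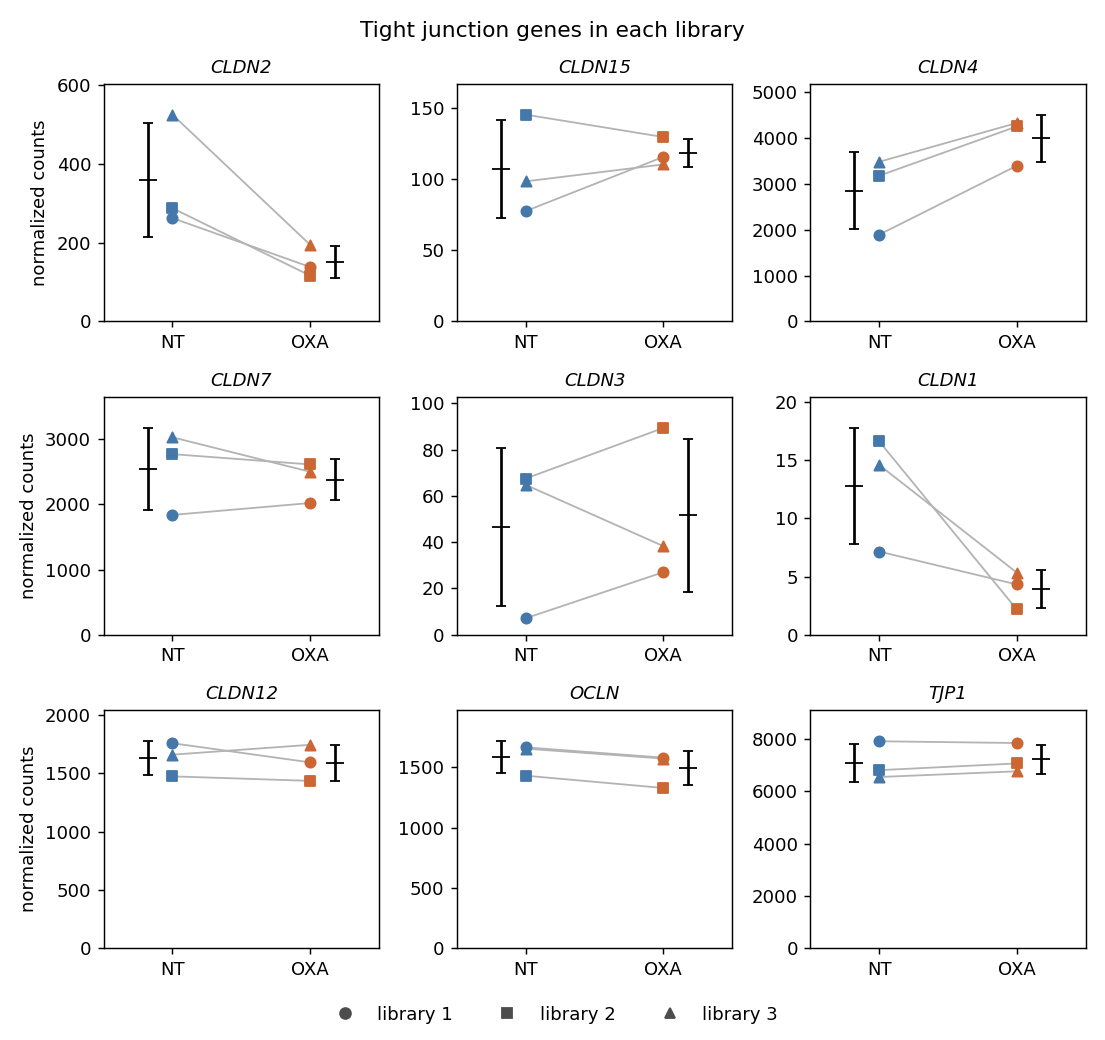
Normalized counts of the 9 tight junction genes (vertical axes from 0, a scale for each gene) in the 3 NT and 3 OXA libraries; grey lines join libraries of the same number and the black bars are the mean ± SD of each group. CLDN2 and CLDN1 are the genes with every OXA library below every NT library, CLDN4 is higher in OXA on each line, and CLDN12, OCLN and TJP1 lie close to level.

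Of the pore-forming claudins, CLDN2 (ENSG00000165376, GRCh38 X:106900164-106930861, plus strand) had the largest change of the tested members. Its normalized counts, that is counts scaled to the same library size, were 262.7, 287.9 and 525.7 in NT libraries 1 to 3 and 138.5, 116.7 and 195.1 in OXA libraries 1 to 3. All OXA libraries lay below all NT libraries, a separation that 14.4% of the tested genes shared in this direction and 14.5% showed in the other. The mean was 358.7 ± 145.1 in NT and 150.1 ± 40.5 in OXA (SD, n = 3 each), 2.39-fold lower in OXA, with a log2 fold change of -1.25 ± 0.31 (SE; 95% interval -1.98 to -0.53). The edgeR adjusted p was 0.0650 without pairing, just short of the threshold, and 0.00519 with the replicate block, where the log2 fold change was -1.23 ± 0.14. Within the pairs the log2 ratio was -0.92, -1.30 and -1.43, so the drop was seen in each. NT library 3 carried the highest count: without it the log2 fold change was -0.90 (adjusted p = 0.132). Without NT library 1 the adjusted p was 0.0164, and in the other 5 fits with a library left out it was 0.0844 to 0.226. Some exon bases of CLDN2 are shared with RIPPLY1 on the opposite strand, and the strand setting of the counting is not given in the sources used here, so reads in that stretch are uncertain.

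The genes most like CLDN2 over the 6 libraries, among 12065 genes with a mean of at least 50 normalized counts, were PTPRJ (Pearson r = 0.993 of log2 CPM), NAAA (r = 0.992) and DDIT4L (r = 0.992). PTPRJ encodes a receptor tyrosine phosphatase and NAAA a lysosomal amidase. All 3 had a smaller difference between groups than CLDN2, with log2 fold changes of -0.24, -0.32 and -0.62, and edgeR adjusted p-values of 0.193, 0.206 and 0.0859. With 6 points and 12065 genes compared, these correlations only describe the shape of the profiles.

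CLDN15 (ENSG00000106404, 7:101232092-101238820, minus strand), the other pore-forming member, did not pass the test. It had 77.7, 145.5 and 98.6 normalized counts in NT and 115.8, 129.7 and 110.5 in OXA. The OXA values all fell inside the NT range. The means were 107.2 ± 34.7 and 118.7 ± 9.95 (SD, n = 3), the log2 fold change was 0.15 ± 0.25 with an interval of -0.43 to 0.72, and the edgeR adjusted p was 0.790. An interval of that width holds both a modest fall and a rise of more than 1.5-fold, so equality of the groups was not shown.

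Among the barrier claudins, CLDN4 (ENSG00000189143, 7:73799542-73832690, plus strand) was higher in OXA within every pair. Its normalized counts were 1896, 3182 and 3486 in NT and 3400, 4258 and 4334 in OXA. The groups overlapped, because OXA library 1 lay below NT library 3, yet each OXA library exceeded the NT library of its own number, by log2 ratios of 0.84, 0.42 and 0.31. The means were 2855 ± 844 and 3997 ± 519 (SD, n = 3), 1.40-fold apart, with a log2 fold change of 0.49 ± 0.22 and an interval of -0.02 to 0.99. The edgeR adjusted p was 0.252 without pairing and 0.0223 with the replicate block, where the log2 fold change was 0.52 ± 0.11.

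The canonical transcript of CLDN4 has a GC content of 60.8%, and NT library 1 was low in GC-rich genes while OXA library 2 was high in them. Whether this shaped the CLDN4 value was not tested. CLDN4 in NT library 1 was 0.569 times the mean of the other NT libraries. After the trends of each library with GC content and with transcript length had been taken out, a step added once the data had been seen, the log2 fold change of CLDN4 was 0.30, with an edgeR adjusted p of 0.0421 without the block and 0.000176 with it. CLDN4 was therefore called in both of those fits at a smaller size. The trends were fitted on deviations from the mean of all 6 libraries, so the step can also take out differences between the groups. Leaving out NT library 1 from the fit without the block brought the log2 fold change down to 0.26 (edgeR adjusted p = 0.210), and over the 6 fits with a library left out it ranged from 0.26 to 0.63, with adjusted p-values of 0.210 to 0.505. CLDN2, with a GC content of 52.4%, gave -1.28 and -1.27 in the same fits, with adjusted p-values of 0.0154 and 3.49e-05. With the trends removed and no block, 1571 of the 13727 tested genes were called higher and 1505 lower, against 381 and 315 before that step. With the trends removed and the block, 23.4% of all tested genes were called higher and 22.1% lower.

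CLDN4 and CLDN2 were also set against each other within each library. They are the members called in opposite directions with the replicate block in these same libraries, so a separated ratio adds no support. CLDN2 alone was already separated, as were 14.4% of all tested genes in that direction. The ratio of CLDN4 to CLDN2 normalized counts was 7.22, 11.1 and 6.63 in NT and 24.5, 36.5 and 22.2 in OXA, so that the lowest OXA ratio was above the highest NT ratio. With 3 libraries against 3, an exact two-sided permutation test cannot give a p below 0.1, and the ratio is given as a description.

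CLDN7 (ENSG00000181885, 17:7259903-7263983, minus strand) had 1839, 2772 and 3030 normalized counts in NT and 2021, 2613 and 2501 in OXA. The OXA values lay within the NT range and the pairs did not share a direction. The means were 2547 ± 626 and 2379 ± 315 (SD, n = 3), and the log2 fold change was -0.10 ± 0.19 (95% interval -0.54 to 0.35, edgeR adjusted p = 0.815), or -0.08 with the replicate block (adjusted p = 0.538). In the fit with the block and with GC and length trends removed it was -0.23, with an adjusted p of 0.00280. That fit called 2 of the 8 tested members lower, CLDN2 and CLDN7, and 1 higher, CLDN4. It called 22.1% of all tested genes lower and 23.4% higher, so these counts did not stand out. CLDN7 was at 0.634 times the mean of the other NT libraries in NT library 1, and its exons share bases with ELP5 on the opposite strand and with a readthrough gene on its own strand, so part of its count is uncertain.

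CLDN3 (ENSG00000165215, 7:73768997-73770270, minus strand, a single exon) was the most variable tested member. It had 7.16, 67.6 and 64.8 normalized counts in NT and 27.0, 89.4 and 38.3 in OXA. NT library 1 was at 0.108 times the mean of the other NT libraries, and CLDN3 is the member with the highest GC content, 69.2%. The pairs went in different directions, with log2 ratios of 1.92, 0.40 and -0.76. The means were 46.5 ± 34.1 and 51.6 ± 33.2 (SD, n = 3), and the log2 fold change of 0.14 ± 0.72 had an interval from -1.53 to 1.81 (edgeR adjusted p = 0.935), which leaves a difference of several fold in either direction undetectable with these libraries. Leaving out NT library 1 turned the sign, to -0.37, as did leaving out OXA library 2, to -0.50.

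CLDN1 (ENSG00000163347, 3:190305707-190322446, minus strand) was barely transcribed. Its raw counts were 7, 16 and 16 in NT and 4, 2 and 6 in OXA. Every OXA library was below every NT library, and the mean normalized count was 12.8 ± 4.99 in NT and 3.95 ± 1.62 in OXA (SD, n = 3), a ratio of 3.24. The gene failed the filter on low counts. When no filter was applied, its log2 fold change was -1.67 ± 0.56 with an edgeR adjusted p of 0.149, and -1.65 with an adjusted p of 0.107 when the replicate block was added, so no call was made in either fit.

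CLDN12 (ENSG00000157224, 7:90383721-90513402, plus strand), the atypical claudin, varied little between libraries. It had 1759, 1475 and 1661 normalized counts in NT and 1595, 1436 and 1745 in OXA, with overlapping groups. The log2 fold change was -0.04 ± 0.11, with an interval of -0.30 to 0.23 (edgeR adjusted p = 0.894). The transcript is rich in A and T (37.7% GC), and NT library 1 was here the highest of the NT libraries, at 1.12 times the mean of the others. Some exon bases of CLDN12 are shared with CDK14, GTPBP10 and PTTG1IP2 on the same strand, and those reads cannot be assigned with certainty.

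Occludin (OCLN, ENSG00000197822, 5:69492292-69558104, plus strand) had 1666, 1431 and 1655 normalized counts in NT and 1581, 1329 and 1574 in OXA. The groups overlapped, although each OXA library was slightly below the NT library of its number. The log2 fold change was -0.08 ± 0.11 with an interval of -0.35 to 0.18 (edgeR adjusted p = 0.725), and -0.09 ± 0.06 with the replicate block (adjusted p = 0.319). The genome also holds a pseudogene copy, OCLNP1, on chromosome 5, and reads shared with it are uncertain.

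TJP1 (ENSG00000104067, 15:29699367-29968915, minus strand), the ZO-1 gene, had the highest counts of the members. It had 7913, 6807 and 6545 normalized counts in NT and 7845, 7064 and 6763 in OXA. The groups overlapped almost fully, and the log2 fold change was 0.03 ± 0.11, with an interval of -0.22 to 0.27 (edgeR adjusted p = 0.913). For TJP1, OCLN and CLDN12 these intervals leave out changes larger than about 1.3-fold, while for CLDN3 and CLDN15 they do not.

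**Figure D2:**
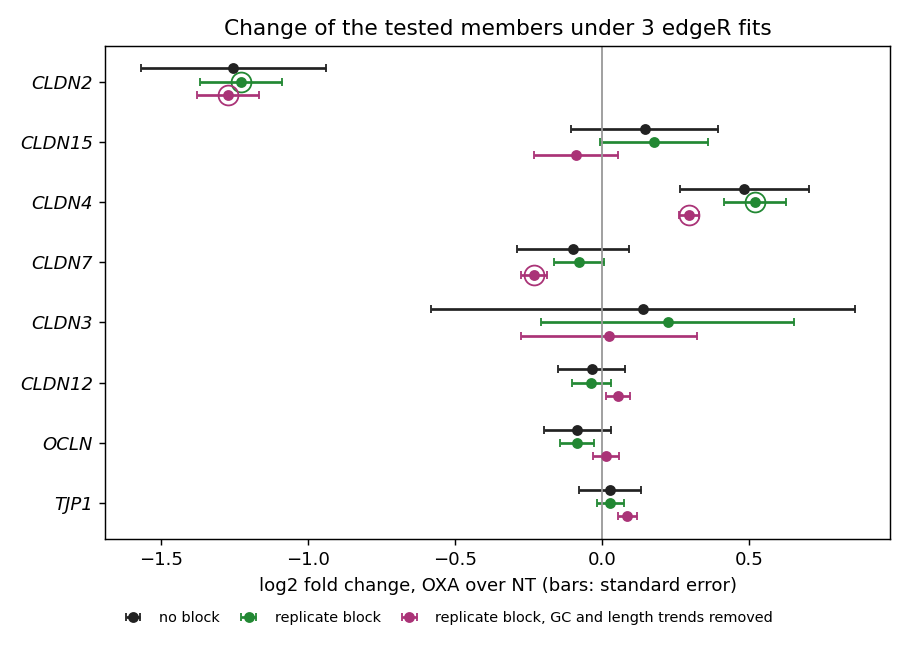
Log2 fold change of OXA over NT (horizontal axis) for the 8 tested members in edgeR fits without the replicate block (black), with it (green) and with it plus removal of GC and length trends (purple); bars are ± 1 standard error and rings mark an adjusted p under 0.05. CLDN2 is near -1.25 in all 3 fits, CLDN4 goes from 0.49 to 0.30, and CLDN7 has a ring in the purple fit alone.

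Levels of different genes were compared as CPM per kilobase of annotated exon, over the union of each gene's exons. In NT, CLDN7 came first at 28.4 ± 6.99 (SD, n = 3), followed by TJP1 at 17.4 ± 1.78 and CLDN4 at 16.9 ± 4.99, whose libraries overlapped. CLDN12 followed at 6.76 ± 0.60 and OCLN at 3.91 ± 0.33. CLDN2 had a level of 2.92 ± 1.18, overlapping with OCLN. CLDN15 at 1.03 ± 0.33 and CLDN3 at 1.01 ± 0.74 overlapped as well, and CLDN1 was last at 0.0980 ± 0.04. The barrier claudins CLDN7 and CLDN4 thus made up most of the claudin transcripts per length, and the leaky CLDN2 was a minor one.

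In OXA the order was the same except that CLDN4, at 23.6 ± 3.07, passed TJP1, at 17.7 ± 1.37. CLDN2 came down to a level of 1.22 ± 0.33, beside CLDN15 at 1.14 ± 0.10 and CLDN3 at 1.13 ± 0.72. The order depends on which transcript length is used. With the canonical transcript alone, CLDN4 came first in NT at 46.8 ± 13.8, overlapping with CLDN7 at 45.9 ± 11.3, and CLDN15 at 2.69 ± 0.23 exceeded CLDN2 at 1.41 ± 0.38 in OXA.

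**Figure D3:**
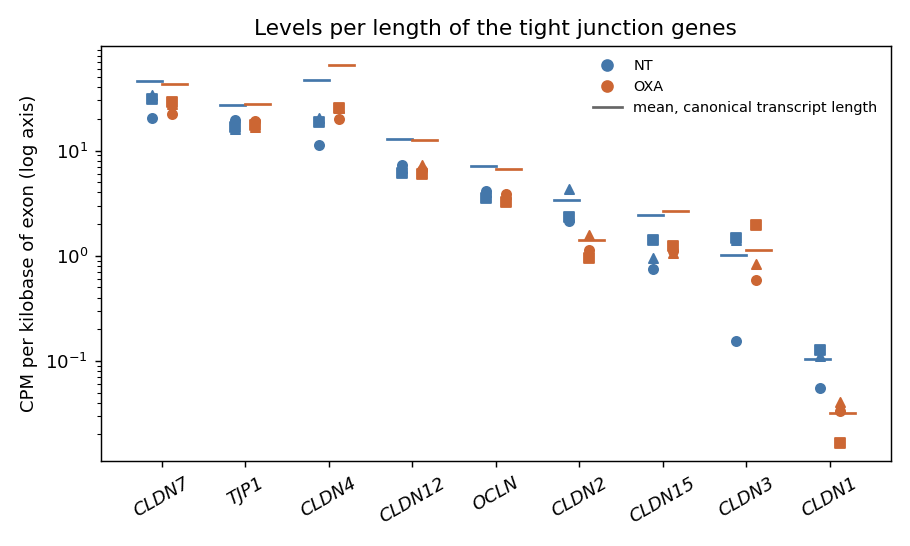
Level of each tight junction gene in CPM per kilobase of exon on a log axis, with a point for each NT (blue) and OXA (orange) library (circles, squares and triangles are libraries 1, 2 and 3) and a short line for the group mean when the canonical transcript length is used instead. CLDN7, TJP1 and CLDN4 are at the top, CLDN1 has the lowest group means, and the lines for CLDN4 lie well above its points.

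As a share of the summed level of the 7 claudins, CLDN4 was 26.6%, 30.8% and 30.3% in NT and 38.6%, 39.1% and 39.9% in OXA. CLDN7 was 48.7%, 50.5% and 49.7% in NT and 43.2%, 45.2% and 43.4% in OXA. CLDN2 was 5.08%, 3.83% and 6.29% in NT and 2.16%, 1.47% and 2.47% in OXA. In all 3 of these claudins the OXA shares did not overlap with the NT shares, and the CLDN4 shares in OXA lay within 1.3 percentage points of each other. The scarce CLDN1 was also separated, at 0.13% to 0.21% in NT and 0.026% to 0.064% in OXA. By normalized counts, 14.4% of all tested genes had every OXA library below every NT library and 14.5% above. Shares sum to a fixed total, so a higher share of CLDN4 lowers the others by construction. CLDN12 was 17.3%, 9.99% and 10.1% in NT and 12.7%, 9.23% and 11.2% in OXA, overlapping, with NT library 1 the highest.

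The rest of the tight junction was read through lists of 67 other genes, of which 51 could be tested. Without the block 1 rose and 2 fell, and with it 5 rose and 4 fell, counts that are close to the backgrounds given above. Their median log2 fold change was -0.0038. Of the 17 other claudins, 14 had too few counts to test: 8 had no count in any library, which allows up to 3 counts in each, and the highest count among the 14 was 4. The tested ones, CLDN9, CLDN22 and CLDN23, had log2 fold changes of 1.02, 0.22 and -0.32, and none passed (edgeR adjusted p = 0.409, 0.919 and 0.470).

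Of 14 other membrane proteins of the junction (tricellular, JAM-type and related proteins), 13 were tested and 0 passed without the block, at unadjusted p under 0.05 for 1 higher and 2 lower and with 0 calls by DESeq2. CXADR, the coxsackievirus and adenovirus receptor, was lower with the replicate block (2075 ± 209 normalized counts in NT and 1613 ± 53.3 in OXA, SD, n = 3, edgeR adjusted p = 0.0169). With the block 1 of the 13 was called lower and 0 higher, against 10.9% and 12.1% of all tested genes. F11R, which encodes JAM-A, had 5911 ± 290 and 6153 ± 233 normalized counts, with an edgeR adjusted p of 0.739.

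Among 14 scaffold genes, of which 13 were tested, AMOT fell. Without the block 0 of the 13 were called higher and 1 lower, against 2.78% and 2.29% of all tested genes. With it 2 were called higher and 2 lower, against 12.1% and 10.9%, so the scaffold list did not stand out. AMOT encodes angiomotin, a junction scaffold that also binds YAP. It had 885.3, 945.7 and 867.0 normalized counts in NT and 618.9, 679.3 and 597.0 in OXA, with no overlap, a log2 fold change of -0.51 ± 0.11 and an edgeR adjusted p of 0.0391. That call was lost without any library other than NT library 1 (adjusted p up to 0.176) and with the factors of the authors (-0.39, adjusted p = 0.186). With the replicate block, its relative AMOTL2 rose (log2 fold change 0.39, adjusted p = 0.0207), TJP3, which encodes ZO-3, rose (0.61, adjusted p = 0.0473, or 0.41 with GC and length trends also removed), and AFDN, the afadin gene, fell (-0.26, adjusted p = 0.0283). TJP3 has a GC content of 63.2% and had 279.1 normalized counts in NT library 1 against 637.1 and 585.0 in the other NT libraries.

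The 12 regulators of the junction held the strongest called fall and the called rise among the other tight junction genes. Without the block 1 of the 12 was called higher and 1 lower, against 2.78% and 2.29% of all tested genes. With it 2 were called higher and 1 lower, against 12.1% and 10.9%. Counts this small are not read as a result about the list. MYLK, the myosin light chain kinase whose activity contracts the perijunctional actin ring, had 345.5, 395.9 and 362.3 normalized counts in NT and 186.1, 184.3 and 173.7 in OXA. It fell by 1.02 ± 0.13 on the log2 scale (edgeR adjusted p = 0.00908), a call lost without OXA library 1 or 2 (adjusted p up to 0.0617) and with the factors of the authors (0.0993). YBX3, also known as ZONAB, is a Y-box factor that ZO-1 holds at the junction. It had 6261, 8304 and 7797 normalized counts in NT and 11422, 12462 and 11633 in OXA, and rose by 0.67 ± 0.12 on the log2 scale (edgeR adjusted p = 0.0231). Its call was lost without NT library 3 or any OXA library (adjusted p up to 0.105). For both genes the groups did not overlap. ARHGEF18 was higher with the replicate block alone (log2 fold change 0.60, adjusted p = 0.0365, or 0.45 with trends also removed), with 349.6 normalized counts in NT library 1 against 676.5 and 632.4 in the other NT libraries and a GC content of 60.4%. Of 10 polarity genes, 0 passed without the block (at unadjusted p under 0.05, 1 higher and 0 lower, and 0 by DESeq2), and PARD6G was called with it (log2 fold change 0.37, adjusted p = 0.0161). That was 1 of 10 higher and 0 lower, against 12.1% and 10.9% of all tested genes, so the polarity list did not stand out.

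**Figure D4:**
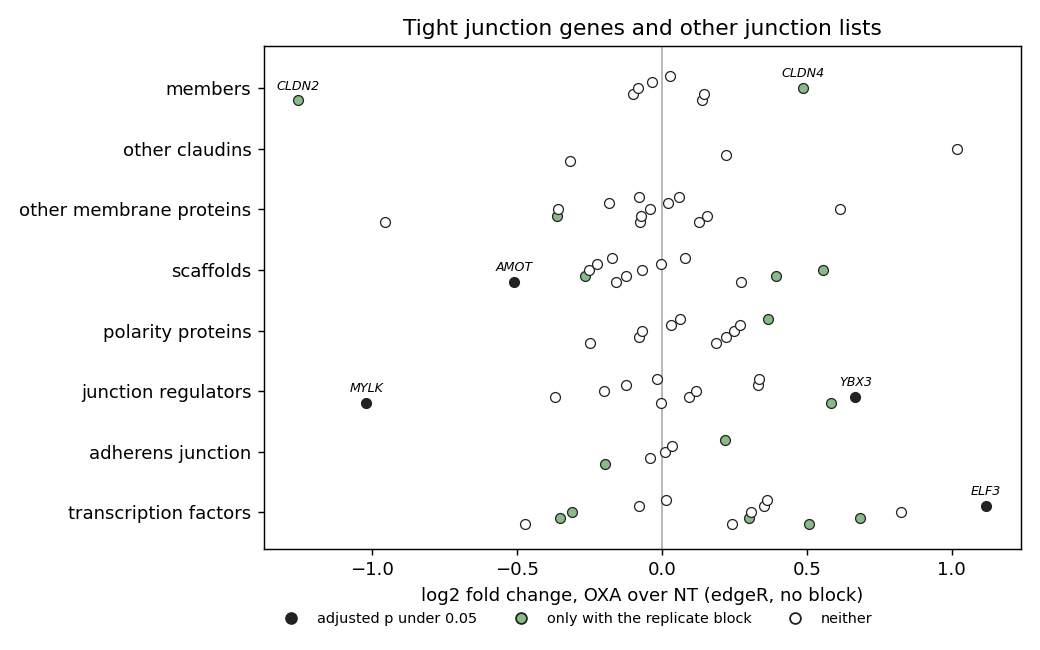
Log2 fold change of OXA over NT (horizontal axis, edgeR without block) for every tested gene of the members and of each other junction list, a point per gene; black points passed an adjusted p of 0.05, green points passed with the replicate block alone and white points passed in neither fit. The members carry 2 green points, CLDN2 at the far left and CLDN4 to the right, and the black points are AMOT, MYLK, YBX3 and ELF3.

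Genes next to the tight junction were read in the same way. Of 5 adherens junction genes, all tested, 0 passed without the block (1 higher and 0 lower at unadjusted p under 0.05, and 0 by DESeq2). With it VCL, the vinculin gene, rose (log2 fold change 0.22, edgeR adjusted p = 0.0416) and CDH1, which encodes E-cadherin, fell (-0.20, adjusted p = 0.0408). In that fit 12.1% of all tested genes were called higher and 10.9% lower, so 1 of 5 in each direction did not stand out. Of 16 transcription factors known to regulate claudin or epithelial genes, 14 were tested and 1 rose, ELF3, an epithelial ETS factor, against 2.78% of all tested genes. ELF3 had 943.5, 1615 and 1480 normalized counts in NT and 2748, 3132 and 2892 in OXA, without overlap, and rose by 1.12 ± 0.19 on the log2 scale (edgeR adjusted p = 0.0210). Without NT library 3 or any OXA library the adjusted p was above 0.05, at most 0.0944.

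With the replicate block, KLF4, KLF5 and SNAI1 also rose and SP1 and GRHL2 fell, which made 4 of the 14 higher and 2 lower, against 12.1% and 10.9% of all tested genes. KLF4 and KLF5, both Krüppel-like factors of gut epithelium, had log2 fold changes of 0.51 and 0.30 (edgeR adjusted p = 0.01395 and 0.0135). SNAI1, which encodes the repressor Snail, had 0.72 (adjusted p = 0.0433), or 0.52 with trends also removed. Its normalized count was 209.6 in NT library 1 against 479.1 and 334.9 in the other NT libraries, and its GC content is 58.4%. SP1, a factor that binds GC boxes, had -0.35 (adjusted p = 0.0109), and GRHL2, a grainyhead-like activator of epithelial genes, had -0.31 (adjusted p = 0.0281). The part of these factors in the values of CLDN2 and CLDN4 was not tested.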

How the data were processed

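Raw counts per gene were deposited by the authors for 3 NT and 3 OXA libraries. The submitters' processing notes list Trimmomatic 0.32, STAR 2.7.5b, RSEM 1.3.3, DESeq2 and GRCh38, so the whole-number counts may be rounded estimates, and strand settings are not given in the sources used here. The deposited normalized signal values (counts times a factor that differs by gene and library) served for 1 alternative only. The edgeR 4.0.16 quasi-likelihood test in R 4.3.3 used TMM scaling, filterByExpr (minimum count 10, total 15), all 6 libraries and Benjamini-Hochberg adjustment over 13727 genes, with calls at an adjusted p under 0.05. Alternatives were the replicate block (same-numbered libraries correlated above 0.1 in all 3 pairs), DESeq2 1.42.0, limma-voom 3.58.1, other scalings and filters, removal of GC and length trends, and leaving out each library. DESeq2 gave 12926 genes an adjusted p. The scripts were tested on simulated data. Positions and lengths came from GENCODE 44 and promoters from RefSeq. The members and lists were chosen with earlier results of these data known. Named were all members, up to 4 genes per list and direction with the largest called change, the 4 smallest p-values called only with the block, every gene of a count of 5 or fewer, and the 3 genes most correlated with the member of smallest p. F11R was added after its values were seen. Replicates of a group differed by more than counting noise (chi-square per gene 19.2 to 83.1).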

Additional observations from a re-analysis of the deposited data

How the results depend on the processing

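With 3 libraries a group and totals of 32979521 to 40967880 counts, depth limits CLDN1, and the spread between libraries limits CLDN3. The number of genes called, 381 higher and 315 lower, depended on the setting: 636 and 635 with DESeq2, 241 and 200 with the authors' gene-specific factors, 1664 and 1493 with the replicate block, 1571 and 1505 with GC and length trends removed, 3214 and 3038 with the replicate block and those trends removed, and 1715 and 1798 with the replicate block and no filter. Leaving out each library in turn gave 66 to 623 higher and 19 to 571 lower, in each case lowest without OXA library 1 and highest without NT library 1. Members called higher went from 0 to 1 in the 4 fits that used the block or removed trends. Members called lower went from 0 to 1 with no filter, DESeq2, the replicate block with or without the filter, and trends removed, to 2 with the replicate block and trends removed, and were 0 to 1 with a library left out. For the genes of the 7 other lists, the calls of 2 higher and 2 lower became 10 and 7 with the replicate block, 9 and 7 with trends removed, 20 and 14 with both, and 11 and 8 with the replicate block and no filter. They were 0 lower with the authors' factors, and 0 to 2 in each direction with a library left out. The calls of ELF3 and YBX3 were lost in 4 of these 6 fits, of AMOT in 5 and of MYLK in 2.

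CLDN2 passed the threshold at a log2 fold change of -1.28 with no filter (edgeR adjusted p = 0.0448), -1.26 with DESeq2, -1.23 with the replicate block, -1.28 with trends removed, -1.27 with the replicate block and trends removed, and -1.26 with the replicate block and no filter, and ranged from -1.52 to -0.90 with a library left out. CLDN4 passed at 0.52 with the replicate block, 0.30 with trends removed, with or without it, and 0.49 with the replicate block and no filter, and ranged from 0.26 to 0.63 with a library left out. CLDN7 passed at -0.23 with the replicate block and trends removed. Signs turned as follows. With trends removed CLDN3 was -0.013, CLDN12 0.056, CLDN15 -0.087 and OCLN 0.014, which with the replicate block as well gave CLDN12 0.055, CLDN15 -0.088 and OCLN 0.015, and with no filter TJP1 was -0.0022. With a library left out CLDN3 ranged from -0.50 to 0.48, CLDN7 from -0.29 to 0.018, CLDN12 from -0.14 to 0.034, CLDN15 from -0.038 to 0.40 and TJP1 from -0.060 to 0.11. The canonical transcript length put 3 members at another rank in NT. The causes were not tested.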
